A study of Mus musculus with 6 samples.

Results

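The 84 genes described here encode the proteins of the cytosolic ribosome in mouse bone marrow. They were taken from 54532 annotated genes by name and biotype: protein-coding genes called Rpl or Rps with a number, together with Rplp0, Rplp1, Rplp2 and Rpsa. Ribosomal S6 kinases, Rps19bp1, Rpl7l1 and names that mark a pseudogene were left out. Of the 84, 51 belong to the large subunit and 33 to the small subunit. The rule itself uses names and biotypes and no measured value. RNA sequencing was carried out on freshly isolated marrow cells from the femurs of wild-type (WT) mice, with 3 libraries from control mice that received no treatment and 3 from mice kept under hindlimb unloading for 4 weeks, a procedure that the study uses to induce osteoporosis. Nothing in the labels says whether each library came from a separate animal, so p-values measure the spread between these libraries, which may be technical. The libraries held 15850986 to 17775506 counts, and 82 of the 84 genes had enough counts to be tested among 15015 genes.

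A ribosome consists of ribosomal RNA and of 1 copy of most of these proteins, so their genes are expressed in all cells at high and related levels. Their messenger RNAs carry a terminal oligopyrimidine tract (TOP), which is a C at the first base followed by a run of C and T, and through it mTOR and the RNA-binding protein Larp1 adjust how much of them is translated. In bone marrow, red cell precursors are known to be sensitive to loss of these proteins: mutation of single ribosomal protein genes causes Diamond-Blackfan anemia. The family is also known for its many processed pseudogenes, which are copies of the spliced messenger RNA inserted elsewhere in the genome, and for small nucleolar RNAs (snoRNAs), many of which are encoded within its introns.

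The start sites of part of the family show a TOP run, a feature that their selection did not use. RefSeq promoter sequences (GRCm38.p6) were found for 64 of the 84 genes. The windows below cover 10 bases before and 20 bases from the annotated start, written 5′ to 3′ along the gene's strand, with the run of C followed by C or T in capitals. They were picked to show what such a run looks like and not how common it is.
Rpl15 (chr14:18270967-18270996, minus strand): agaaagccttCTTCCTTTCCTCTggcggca
Rpl35 (chr2:39005112-39005141, minus strand): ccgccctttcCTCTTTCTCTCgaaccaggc
Rps6 (chr4:86857348-86857377, minus strand): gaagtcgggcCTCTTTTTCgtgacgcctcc
Rps15a (chr7:118116128-118116157, minus strand): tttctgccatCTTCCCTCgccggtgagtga
Rps10 (chr17:27635225-27635254, minus strand): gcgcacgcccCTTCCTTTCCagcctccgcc
Rpl7a (chr2:26910797-26910826, plus strand): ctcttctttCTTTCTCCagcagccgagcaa
Rpl13a (chr7:45128726-45128755, minus strand): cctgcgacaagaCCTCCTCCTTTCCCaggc
In Rpl15, Rpl35, Rps6, Rps15a and Rps10 the run begins at the annotated start, in Rpl7a it begins 1 base before it, and in Rpl13a 2 bases after it. Rpl24, by contrast, has no such run near its annotated start.
Rpl24 (chr16:55966265-55966294, plus strand): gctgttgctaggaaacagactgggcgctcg

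A C followed by at least 4 bases of C or T, read on the gene's own strand, began within 1 base of the annotated start in 20 of the 64 genes (31.2%), against 7.51% of all 27025 genes with a promoter sequence. Within 10 bases it was found in 62.5% of the family and in 34.4% of all genes. The annotated start need not be the start used in marrow, and a run in this window is a description of letters only. The 20 genes with the run had a median log2 fold change between unloaded and control of 0.09, and the 42 tested genes with a promoter sequence and no run had 0.10.

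A second shared feature was the motif CCGGAAG, searched on both strands within 250 bases before and 50 bases after the start. It was present in 40.6% of the 64 genes and in 9.93% of all genes. The motif's reverse complement, CTTCCGG, opens with a C and a short pyrimidine run, so a match on that strand can also count as a run. Rpl11 and Rpl26 hold the motif, in capitals, close to the start.
Rpl11 (chr4:136053374-136053403, minus strand): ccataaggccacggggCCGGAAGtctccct
Rpl26 (chr11:68901556-68901585, plus strand): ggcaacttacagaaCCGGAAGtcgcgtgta
For comparison, CACGTG on either strand occurred in 9.38% of the family and 8.09% of all genes, and TATAAA in 10.9% and 15.7%. The 25 tested genes with CCGGAAG had a median log2 fold change of 0.08, and the 37 without it had 0.11.

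Levels were compared between the genes as CPM (reads of a gene scaled to library size, with TMM factors) per kilobase of transcript, averaged over the 6 libraries. The median of the 84 genes was 459 CPM per kb, and 74 of them were above 100. By the length of the GENCODE transcript, the highest was Rplp1 at 1843 CPM per kb, followed by Rpl13 at 1392, Rps9 at 1230, Rplp0 at 1212 and Rps18 at 1071. The deposited gene length gave another order after Rplp1, with Rps3a1 at 1011 CPM per kb, Rplp0 at 992, Rps15 at 722 and Rpl8 at 696, and with Rpl13 at 418 and Rps18 at 241. Rplp0 and Rplp1 belong to the stalk of the large subunit, which recruits the translation factors that act as GTPases. At the bottom were the tissue-restricted paralogs. Rpl10l, a retrogene known for its role in the testis, had no count in any library, and Rpl39l had 1, 0 and 1 counts in the control libraries and 1, 0 and 11 in the unloaded libraries. A count of 0 in a library allows up to 3 counts, or 0.169 to 0.189 CPM, for counting error only. Rpl3l, the form of Rpl3 used in heart and skeletal muscle, was tested at 0.801, 1.57 and 0.646 CPM in the controls and 1.27, 0.530 and 1.17 CPM in the unloaded libraries.

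Between unloaded and control marrow, none of the 82 tested genes passed an adjusted p of 0.05 in edgeR's quasi-likelihood test. The same test called 0% of all 15015 genes. An unadjusted p under 0.05 was found for 5.85% of all genes and for 4 of the 82. Of these, 3 ribosomal protein genes were higher in unloaded marrow (Rpl17, Rpl24 and Rpl13a), where the background was 2.67% of all genes, and 1 was lower (Rpl7a), where it was 3.18%. DESeq2 called 1 of the 82, Rpl17, and 40 of all 15015 genes. With limma-voom, 0 of the 82 and 0 of all 15015 genes were called. The log2 fold changes were narrowly spread: 73 of 82 lay within 0.25 of 0, and the quartiles were 0.06 and 0.15. A positive value was found for 74 of 82 genes, against 51.2% of all genes, and the median was 0.10, against 0.005 for all genes. All 3 unloaded libraries lay above all 3 controls for 5 genes (Rpl17, Rpl24, Rpl13a, Rpl3 and Rpl34), against 5.46% of all genes, which is a share near that background, and below all 3 controls for none, against 6.40%. Without control 2 the number above was 45, against 10.4% of all genes in the same fit. Without unloaded 2 it was 19, against 11.4%, and without unloaded 3 it was 10, against 11.2%. With library size as the only scaling it was 12, against 6.15%.

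**Figure D1:**
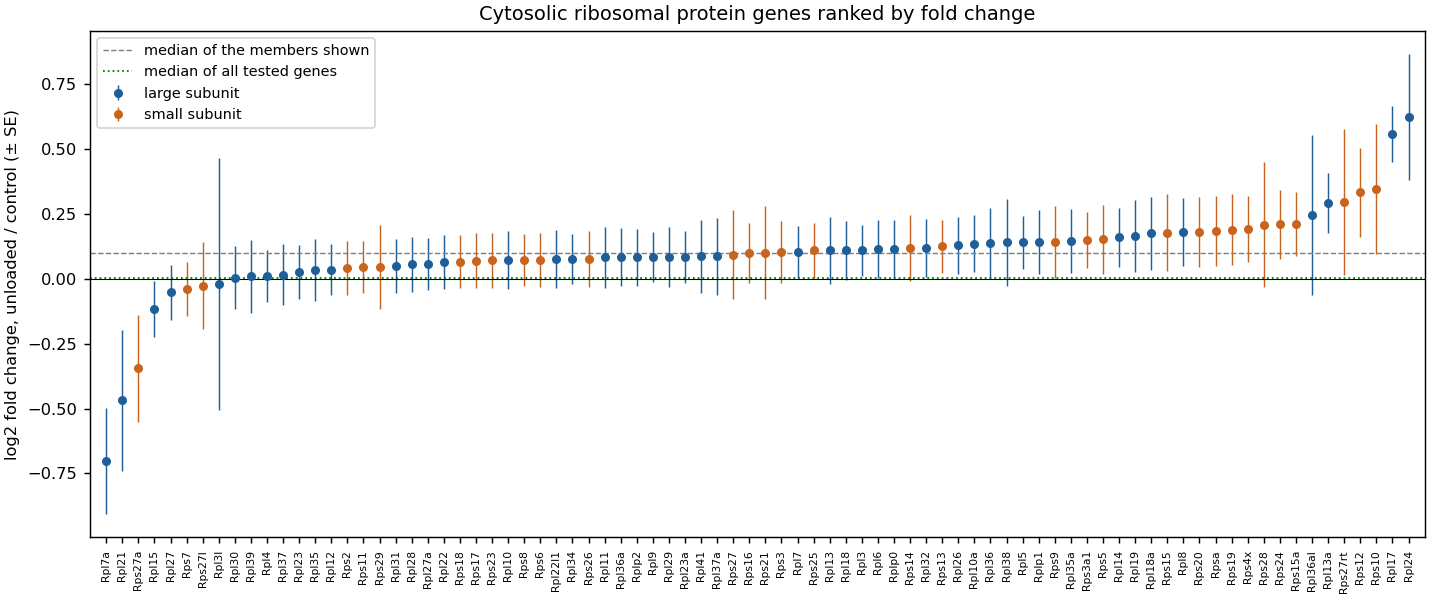
Log2 fold change between unloaded and control marrow (vertical axis, error bars are SE, 3 libraries per group) for each of the 82 tested ribosomal protein genes in order of fold change, coloured by subunit, with lines at the median of these genes and of all tested genes. Most points lie just above 0, with 74 of 82 positive and a median of 0.10; Rpl17 and Rpl24 stand at the upper end and Rpl7a, Rpl21 and Rps27a at the lower end.

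The positive values came with differences between single libraries. The family took 3.36%, 3.84% and 3.69% of all counts in the control libraries and 4.26%, 3.77% and 3.74% in the unloaded libraries. The control mean was 3.63% ± 0.244 and the unloaded mean 3.92% ± 0.295 (SD, n = 3), and the groups overlapped. Unloaded 1 was above the 5 other libraries and control 1 was below them. Without unloaded 1 the unloaded mean was 3.75%, the median log2 fold change was 0.03 and 64 of 82 genes were positive. Without control 1 the median was 0.05 and 61 were positive, and without control 2 it was 0.16 and 76 were positive. In bulk marrow, fewer cells of a type and less RNA per cell cannot be told apart.

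Gene by gene, the same libraries were at the ends of the range. Unloaded 1 had the highest level of 54 of the 82 genes, against 28.2% of all tested genes, and control 1 had the lowest level of 64, against 16.6%. Control 2 was above control 1 for 80 of 82 genes, by a median log2 difference of 0.22, while the median over all genes was 0.003. That difference, within 1 group, was larger than the median difference between the groups. The share of counts on mitochondrial genes was 0.439% in unloaded 1 and 1.05% to 1.27% in the 5 other libraries, and its part in the result was not tested.

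**Figure D2:**
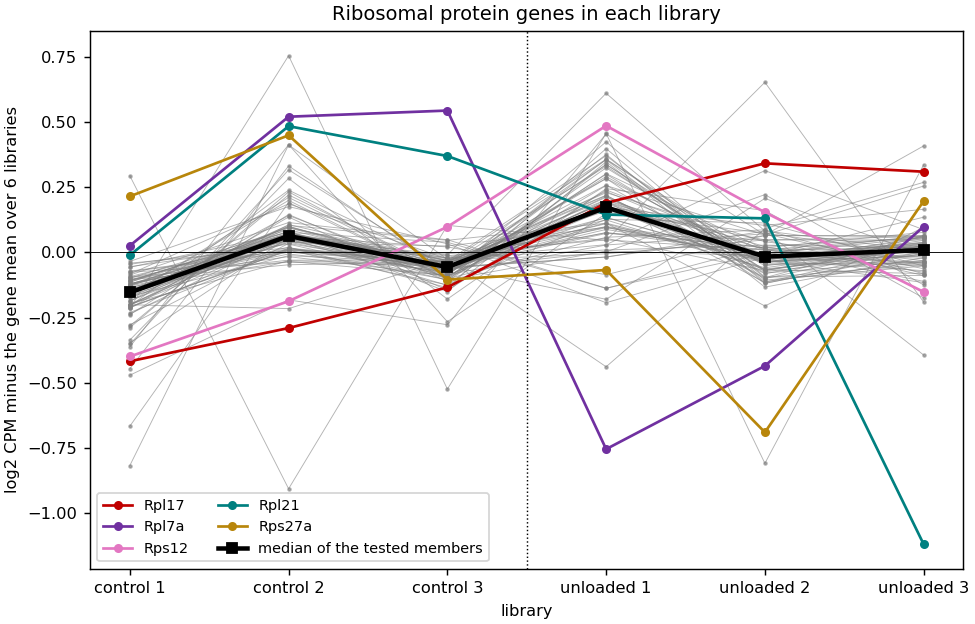
Log2 deviation of each of the 82 tested genes from its own mean over the 6 libraries (vertical axis), by library. Each line joins 1 gene's values, 5 genes are coloured and black squares mark the median; the order of libraries within a group has no meaning. The median was lowest in control 1 (−0.154) and highest in unloaded 1 (0.173), and the other 4 libraries lay between −0.056 and 0.063.

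Transcript length and GC content differed along with these library differences. Length was that of the annotated principal transcript of each gene, for example 5179 bases for Rps15a and 3706 for Rps20. The length classes depend on that choice, and the transcript used in marrow may be shorter. The 11 genes with transcripts under 500 bases had a median log2 difference of 0.38 between control 2 and control 1. The 41 genes from 500 to under 1000 bases had 0.22, and the 30 of at least 1000 bases had 0.18. Other protein-coding genes at 20 CPM or more had 0.25 (20 genes), 0.19 (298 genes) and −0.01 (7002 genes) in the same length classes. The short genes of the small subunit show it most plainly. Rps28 was at 26.7, 62.6 and 46.2 CPM in the controls and 48.0, 58.5 and 50.0 CPM in the unloaded libraries. Counted together with its near-identical copies, which are described below, Rps28 was at 65.5, 94.9 and 76.5 CPM in the controls. The gap between control 1 and control 2 was smaller in that sum, so the assignment of reads also bears on this example. Rps27 was at 117, 200 and 151 CPM in the controls and 182, 160 and 157 CPM in the unloaded libraries. In both genes the unloaded libraries lay within the range of the controls, and control 1 was the lowest library. Rps21 was at 81.7, 140 and 87.4 CPM in the controls, and its unloaded libraries, at 104 to 117 CPM, again lay inside that range. In unloaded 1, the 41 genes with GC content above the family's median of 51.6% were higher than the mean of the 5 other libraries by a median of 0.23 (log2) and the 41 others by 0.17. For other protein-coding genes the medians were 0.15 above and −0.14 at or below that GC content. Rps27rt was the 1 exception among the 11 short genes, at 73.8 CPM in control 1 and 32.1 CPM in control 2. The part of length and GC content in the result was not tested.

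**Figure D3:**
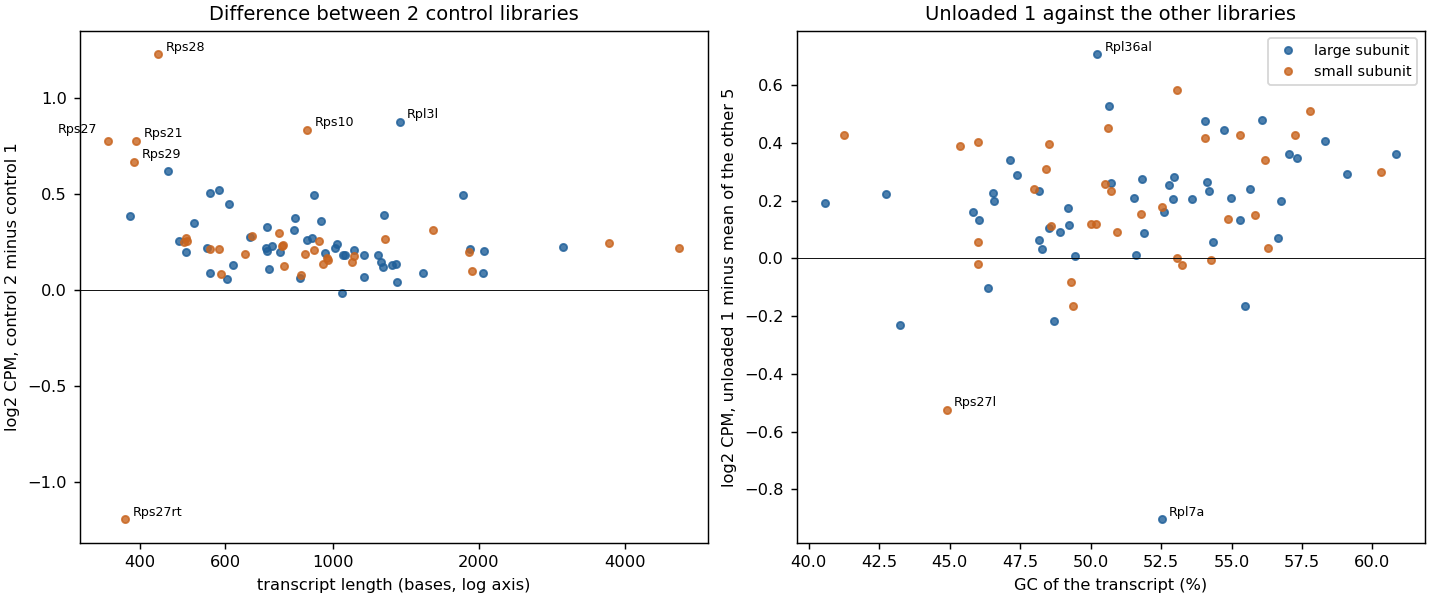
Log2 difference between control 2 and control 1 against transcript length (log axis), and log2 difference between unloaded 1 and the mean of the 5 other libraries against GC content, for the 82 tested genes, coloured by subunit. Rps27rt, at the lower left, goes against the other short genes. Across these genes, which share libraries and are not independent replicates, Spearman's rho was −0.308 for length and 0.264 for GC content.

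Among the large-subunit genes with a preset role or a high level, several had small fold changes beside their SE. Rpl13 was at 987, 1133 and 1011 CPM in the controls and 1329, 1031 and 1020 CPM in the unloaded libraries (0.11 ± 0.13). In the stalk, Rplp0 was at 1557, 1598 and 1582 CPM in the controls and 1930, 1620 and 1585 CPM in the unloaded libraries, a log2 fold change of 0.12 ± 0.11 (SE). Rplp1 was at 820, 940 and 863 CPM against 1119, 886 and 888 CPM (0.14 ± 0.12), and Rplp2 at 342, 390 and 345 CPM against 416, 365 and 360 CPM (0.08 ± 0.11). For all 3 stalk genes unloaded 1 was the highest library, and the other unloaded libraries fell inside or next to the control range. Without unloaded 1 the median of the 3 fold changes was 0.02. Rpl3, which lies close to the catalytic centre, was at 792, 870 and 829 CPM in the controls and 907, 892 and 892 CPM in the unloaded libraries (0.11 ± 0.10, adjusted p = 0.916). Rpl34 was at 299, 326 and 323 CPM against 335, 327 and 338 CPM (0.08 ± 0.10, adjusted p = 0.935). The groups did not overlap for Rpl3 or Rpl34, but the gap between them was small in both.

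Rpl5 and Rpl11 bind the smallest ribosomal RNA of the large subunit, and when free they bind and inhibit Mdm2, the ubiquitin ligase of p53. Rpl5 was at 632, 672 and 638 CPM in the controls and 773, 671 and 698 CPM in the unloaded libraries (0.14 ± 0.10). Rpl11 was at 387, 479 and 436 CPM against 502, 425 and 452 CPM (0.08 ± 0.12). The groups overlapped for both. Of 11 tested genes of the p53 response to free ribosomal proteins, 5 had positive and 6 negative fold changes, with a median of −0.03, and none was called. That median was 0.04 without unloaded 1 and 0.04 without control 3. The gene with the smallest p among them was Cdkn1a, which encodes the cell cycle inhibitor p21. It was at 12.9, 10.8 and 8.81 CPM in the controls and 27.0, 13.02 and 15.4 CPM in the unloaded libraries (0.77 ± 0.26, adjusted p = 0.801).

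The 18 genes listed for Diamond-Blackfan anemia had a median log2 fold change of 0.10, with 15 positive and 3 negative (Rpl15, Rpl27 and Rps7), and none was called. Rps19, the gene most often mutated in that disease, was at 378, 464 and 415 CPM in the controls and 570, 431 and 433 CPM in the unloaded libraries. Its log2 fold change of 0.19 ± 0.14 was 0.05 without unloaded 1. Rps24 was at 436, 541 and 504 CPM against 667, 514 and 532 CPM (0.21 ± 0.13). Both follow the library pattern of the family, with control 1 lowest and unloaded 1 highest. Rpl15, with the longest TOP run among the windows of that list printed above, was at 320, 371 and 336 CPM against 287, 324 and 336 CPM (−0.12 ± 0.11). Rps7 was at 599, 657 and 640 CPM against 566, 634 and 647 CPM (−0.04 ± 0.10). In Rpl15 and Rps7 unloaded 1 was the lowest of the 6 libraries. Without control 1 the median of the 18 genes was 0.01, with 11 positive, without unloaded 1 it was 0.05, with 17 positive, and without control 2 it was 0.17, with 15 positive.

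Small-subunit proteins differed among themselves in the same narrow way, with a median of 0.11 over 33 genes and 30 positive, beside a median of 0.09 over 49 large-subunit genes and 44 positive. Rpsa, a protein of the small subunit also known as a laminin receptor, was at 1385, 1483 and 1428 CPM in the controls and 1971, 1399 and 1516 CPM in the unloaded libraries, with unloaded 1 apart from the rest. Rps9 was at 1022, 1180 and 1005 CPM against 1419, 1017 and 1100 CPM (0.14 ± 0.14), and Rps18 at 542, 629 and 587 CPM against 597, 619 and 625 CPM (0.07 ± 0.10). In Rps9 unloaded 1 was again highest, while in Rps18 it was the lowest unloaded library. Rps12 had the smallest p of the small-subunit genes, at 270, 312 and 380 CPM against 498, 395 and 320 CPM (0.33 ± 0.17, adjusted p = 0.882), and the groups overlapped. Rps27a, which encodes a fusion of ubiquitin and a ribosomal protein, was at 452, 532 and 362 CPM against 372, 241 and 446 CPM (−0.35 ± 0.21, adjusted p = 0.890). Its range among the unloaded libraries alone was wider than the difference between the group means of 449 and 353 CPM.

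Rpl17 was the member with the smallest p. Its annotated gene (ENSMUSG00000062328) lies at chr18:75000477-75003381 on the plus strand of mm10 and encodes a protein at the exit of the nascent peptide tunnel. It was at 121, 133 and 148 CPM in the controls and 185, 205 and 201 CPM in the unloaded libraries, means of 134 ± 13.2 and 197 ± 10.8 CPM (SD, n = 3). All 3 unloaded libraries were above all 3 controls. The log2 fold change was 0.56 ± 0.11 (edgeR adjusted p = 0.313), and the adjusted p was 0.00414 with DESeq2 and 0.0601 in edgeR without unloaded 1. Over the alternatives run it went from 0.00382 with no filter on low counts to 0.9994 without control 1.

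Near-identical copies of Rpl17 bear on that value. Such copies were searched among genes with counts and a pseudogene biotype or name. Of these, 23 matched the Rpl17 transcript at 90% identity or more over at least 80% of their own length. Rpl17-ps10 and Rpl17-ps3 were among the 23. The copies took 67.9% of the counts of Rpl17 and its copies together. The copies summed to 357, 407 and 351 CPM in the controls and 368, 309 and 297 CPM in the unloaded libraries. Together with Rpl17 they gave 478, 540 and 499 CPM against 553, 514 and 498 CPM, and these groups overlapped. With the copies' counts added, the fitted log2 fold change was 0.05 (adjusted p = 0.966). How reads that match both the gene and a copy were assigned is not given in the sources used here, so the value of Rpl17 alone is uncertain.

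**Figure D4:**
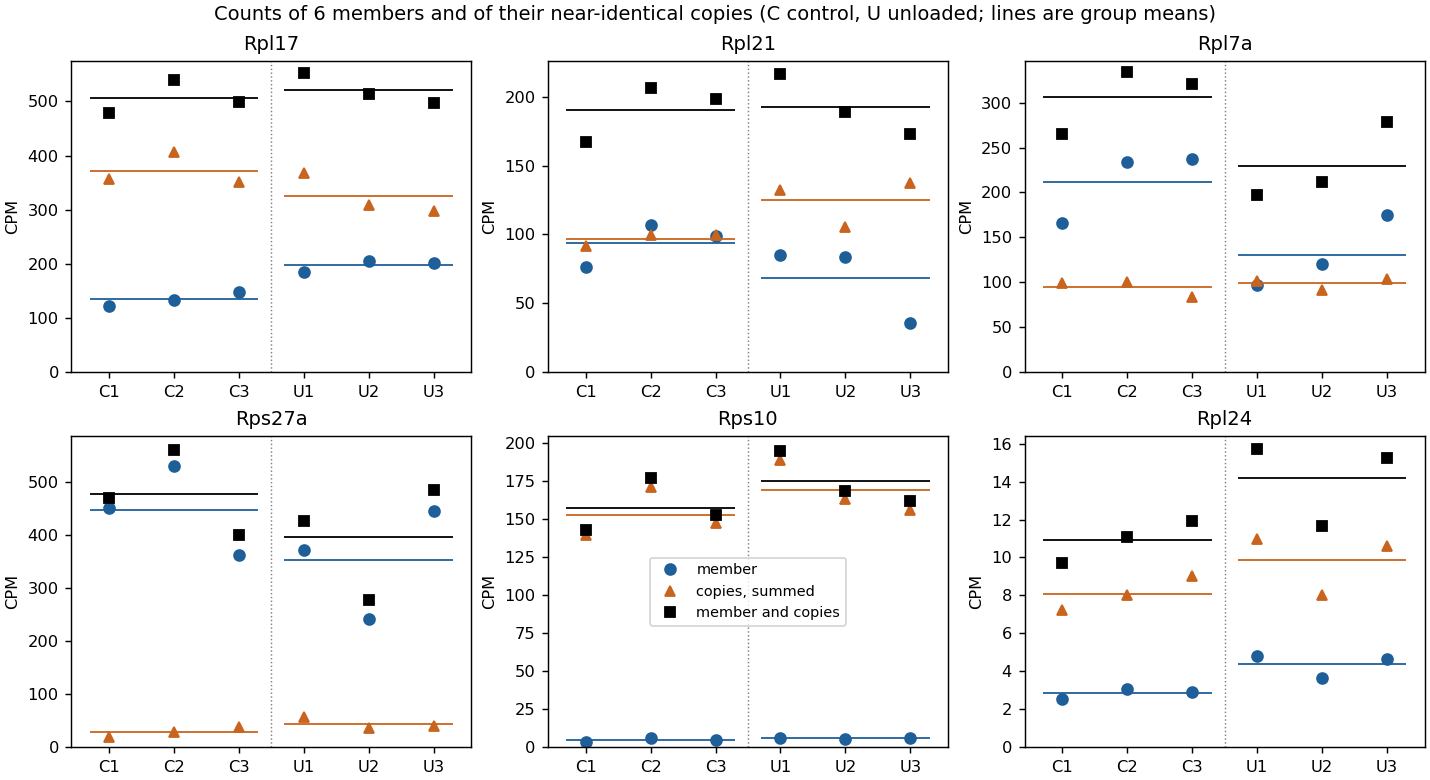
CPM by library (vertical axis, starting at 0) for 6 members, with circles for the gene itself, triangles for the sum of its near-identical copies and squares for both together; C1 to C3 are control and U1 to U3 unloaded libraries, and lines are group means. For Rpl17 the gene alone separates the groups, at 121 to 148 against 185 to 205 CPM, and the sum does not, at 478 to 540 against 498 to 553 CPM.

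In all, 587 of the searched genes matched 77 of the 84 members as near-identical copies, each taken for its best match only. Protein-coding genes were not searched, so Rps27rt is not counted as a copy of Rps27, and the shares below cover pseudogenes alone. The copies' share of the summed counts had a median of 4.23%, was under 10% for 60 members and was above 30% for 8. Those 8 were Rps10 (96.8%), Rpl24 (71.5%), Rpl17 (67.9%), Rpl21 (57.6%), Rps28 (40.8%), Rpl36al (37.2%), Rpl7a (35.9%) and Rps12 (34.6%). They include Rpl17 and Rpl24 among the 3 genes with a positive fold change at an unadjusted p under 0.05, and Rpl7a, the 1 with a negative one.

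Rpl7a (ENSMUSG00000062647, chr2:26910764-26913318, plus strand) was at 166, 233 and 237 CPM in the controls and 96.5, 120 and 174 CPM in the unloaded libraries. The groups overlapped at unloaded 3. The log2 fold change was −0.70 ± 0.21 (edgeR adjusted p = 0.722). With its 44 copies the sums were 265, 334 and 321 CPM against 198, 212 and 278 CPM, and the fitted value was −0.42 (adjusted p = 0.810). Rpl21 (chr5:146832890-146837032, plus strand) was at 76.0, 107 and 98.95 CPM in the controls and 84.7, 83.8 and 35.2 CPM in the unloaded libraries (−0.47 ± 0.27, adjusted p = 0.890). Its 47 copies summed to 91.3, 99.4 and 99.4 CPM against 132, 105 and 137 CPM. Gene and copies together were at 167, 207 and 198 CPM against 217, 189 and 173 CPM, and the fitted value was 0.02. The direction for Rpl21 thus depends on whether the copies are counted.

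Rpl24, Rpl13a, Rps10 and Rpl36al were far below the rest of the family in level. They stood at 2.29 to 28.0 CPM per kb, while the lowest of the 77 other members, leaving out Rpl3l, Rpl39l and Rpl10l, was at 43.6 and their median was 487. In the GENCODE M21 annotation these 4 are the members whose transcript lies for more than 20% within exons of another gene on the same strand: Rpl24 for 71.5% (Gm28037), Rpl13a for 59.3% (Gm45713), Rps10 for 53.6% (RPS10-NUDT3) and Rpl36al for 26.0% (Gm49383). All 4 overlapping genes had 0 counts in every library. The release used by the authors is not given in the sources used here, and the part of the overlap in these levels was not tested.

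**Figure D5:**
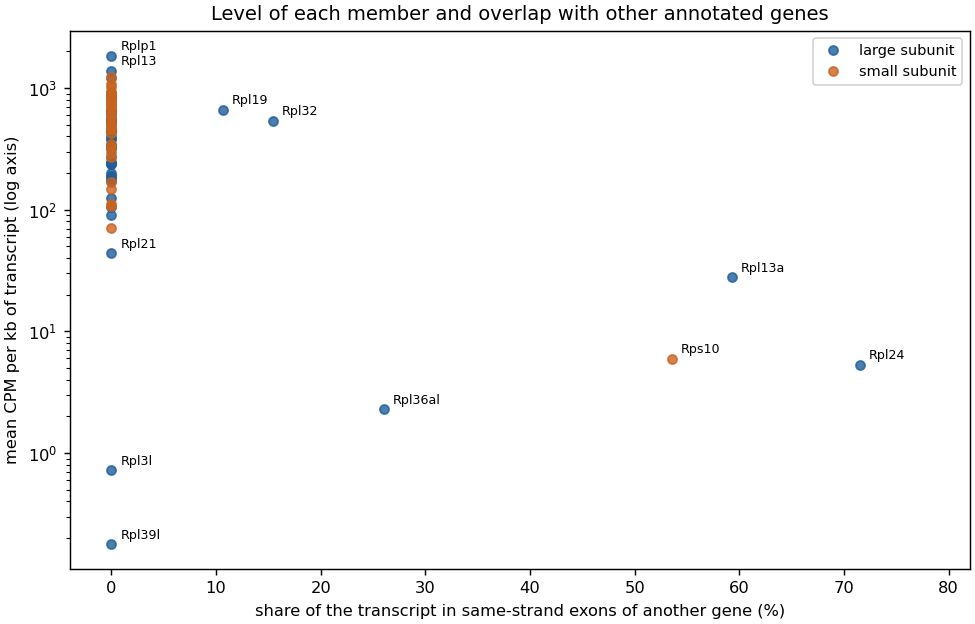
Level of each member in CPM per kb of transcript (vertical log axis, mean of 6 libraries) against the percentage of its transcript that lies in same-strand exons of another annotated gene. The 4 members above 20% sit at 2.29 to 28.0 CPM per kb; Rpl10l, with no count, cannot be shown on the log axis.

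Of these 4 genes, Rpl24, Rps10 and Rpl36al rest on few reads. Rpl24 (ENSMUSG00000098274, chr16:55966275-55971435, plus strand) was at 2.52, 3.07 and 2.88 CPM in the controls and 4.78, 3.65 and 4.63 CPM in the unloaded libraries. Its groups did not overlap, and the log2 fold change was 0.62 ± 0.24 (edgeR adjusted p = 0.804), or 0.38 with the copies added. Rpl13a (ENSMUSG00000074129, chr7:45125558-45128761, minus strand), known also as a translational silencer in myeloid cells after interferon, was at 25.3, 25.1 and 28.6 CPM against 32.8, 31.3 and 32.7 CPM. Means were 26.3 ± 1.96 and 32.2 ± 0.842 CPM (SD, n = 3), without overlap, and the log2 fold change was 0.29 ± 0.12 (adjusted p = 0.804). Rps10 was at 3.26, 5.91 and 4.82 CPM against 6.18, 5.42 and 6.17 CPM, and with its copies, mainly Rps10-ps2, at 143, 177 and 153 CPM against 195, 168 and 162 CPM. The gene alone had a log2 fold change of 0.35 ± 0.25, and with the copies 0.16. Rpl36al was at 2.23, 2.95 and 2.82 CPM against 4.33, 3.00 and 2.16 CPM (0.25 ± 0.31), and its log2 fold change was −0.04 without unloaded 1.

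Among paralogs expressed beside their partner, Rpl22, which binds RNA also outside the ribosome and is needed for T cell development, was at 192, 221 and 219 CPM in the controls and 230, 212 and 220 CPM in the unloaded libraries (0.07 ± 0.10). Rpl22l1 was at 45.2, 52.7 and 48.6 CPM against 55.9, 49.9 and 48.6 CPM (0.08 ± 0.11). Per kilobase of transcript the pair was at 105 and 90.9 CPM, a ratio of 1.16. Per kilobase of deposited gene length it was at 74.1 and 25.2 CPM, so the ratio depends on the length used. Rpl36a was at 106, 127 and 113 CPM against 133, 122 and 111 CPM (0.08 ± 0.11). The X-linked Rps4x was at 736, 825 and 816 CPM against 1061, 804 and 852 CPM (0.19 ± 0.13), with unloaded 1 apart from the rest. Rpl10, also X-linked, was at 707, 737 and 690 CPM against 833, 672 and 738 CPM (0.07 ± 0.11), and Rpl39 at 177, 240 and 196 CPM against 180, 235 and 202 CPM (0.01 ± 0.14). The groups overlapped for all 4 of these genes. Rps4l, a relative of Rps4x that the table lists as a transcribed processed pseudogene and that is therefore no member, was at 9.61, 10.7 and 9.87 CPM against 12.2, 14.4 and 13.5 CPM (0.41 ± 0.16, adjusted p = 0.804). Its groups did not overlap. Rps27l, a p53 target, was at 49.8, 60.04 and 51.9 CPM against 38.9, 56.2 and 63.6 CPM (−0.03 ± 0.17).

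Rps27 has a second coding copy, Rps27rt, on another chromosome. The run at the annotated start is 7 bases long in Rps27 and 6 in Rps27rt.
Rps27 (chr3:90213629-90213658, minus strand): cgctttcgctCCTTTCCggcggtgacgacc
Rps27rt (chr9:114982720-114982749, minus strand): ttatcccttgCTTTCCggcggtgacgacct
Rps27rt was at 73.8, 32.1 and 64.7 CPM in the controls and 62.2, 94.7 and 52.8 CPM in the unloaded libraries (0.30 ± 0.28). It was lowest in control 2, where Rps27 was highest at 200 CPM. The sum of the pair was 191, 232 and 216 CPM against 244, 255 and 210 CPM, which overlap, and reads shared by such copies cannot be assigned with certainty.

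Annotated snoRNA genes lie within the bounds of 30 members. Among these 30 the median log2 fold change was 0.09 with 28 positive, and among the 52 other tested members it was 0.10 with 46 positive.

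Genes that build or regulate ribosomes were read from lists set by role. Rack1, a scaffold protein on the small subunit, was at 948, 983 and 973 CPM in the controls and 1111, 987 and 1008 CPM in the unloaded libraries (0.10 ± 0.10, adjusted p = 0.924). Fau, which encodes a small-subunit protein fused to a ubiquitin-like one, was at 571, 702 and 560 CPM against 816, 545 and 581 CPM (0.08 ± 0.16, adjusted p = 0.960). The groups did not overlap for Rack1, by a narrow gap, and overlapped for Fau. The 57 tested factors of nucleolar ribosome assembly had a median of 0.14, with 53 positive and none called. Of them, 8 were higher at an unadjusted p under 0.05 in edgeR, where the background was 2.67% of all genes. Nop14, a factor for the small-subunit precursor, was at 27.2, 28.1 and 29.0 CPM in the controls and 37.0, 38.3 and 42.2 CPM in the unloaded libraries (0.48 ± 0.11, adjusted p = 0.524). Nop56, a core protein of snoRNA particles, was at 120, 116 and 124 CPM against 141, 143 and 166 CPM (0.33 ± 0.10, adjusted p = 0.787). Brix1, needed for the large subunit, was at 26.8, 28.5 and 28.0 CPM against 33.3, 33.6 and 42.4 CPM (0.39 ± 0.13, adjusted p = 0.801). For all 3, named for their small p, the groups did not overlap. Over the list, the unloaded libraries lay above all controls for 12 genes, against 5.46% of all genes. They lay below all controls for 0, against 6.40%. Summed over the list, the assembly factors were at 3757, 3908 and 3996 CPM in the controls and 3864, 4349 and 4746 CPM in the unloaded libraries. They were thus highest in unloaded 3, where the ribosomal protein genes were not. Without unloaded 1 their median was 0.22, with 57 of 57 positive, 27 at an unadjusted p under 0.05, where the background was 3.81% of all genes, and none called. Without unloaded 3 it was 0.05, with 38 positive and 4 higher at an unadjusted p under 0.05, where the background was 3.50%. Without control 1 it was 0.12, with 49 positive and 3 higher at an unadjusted p under 0.05, where the background was 1.45%.

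RNA polymerase I, which transcribes ribosomal RNA, had 17 of 21 tested genes positive (median 0.11, or 0.06 without control 3 and 0.07 without control 1) and none called. Polr1b was at 38.5, 31.3 and 41.2 CPM against 42.8, 49.6 and 49.3 CPM (0.35 ± 0.13, adjusted p = 0.804). Translation factors, many of which also carry TOP runs, had 35 of 40 positive (median 0.09) and none called. Eif3d, a subunit of the initiation factor that binds the small subunit, was at 83.2, 84.1 and 85.6 CPM against 101, 96.6 and 99.4 CPM (0.23 ± 0.09, adjusted p = 0.804). Of 22 genes of mTOR signalling and TOP control, 13 were positive and 9 negative, and none was called. Their median was 0.03, and −0.006 without unloaded 2, 0.001 without control 2 and 0.006 without unloaded 1. Ddit4, an inhibitor of mTOR complex activity, was at 21.05, 15.85 and 26.3 CPM against 16.1, 15.1 and 14.5 CPM (−0.47 ± 0.18, adjusted p = 0.804), and the groups overlapped. Larp1 was at 220, 207 and 214 CPM against 239, 227 and 249 CPM (0.15 ± 0.10, adjusted p = 0.896).

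Markers of marrow cell types were read beside these values. All 7 mature neutrophil and all 7 B lineage markers that define marrow were detected and tested. The 5 erythroid markers summed to 3573, 3469 and 4213 CPM in the controls and 5198, 5726 and 4408 CPM in the unloaded libraries, which did not overlap, and none of the 5 was called. Mature neutrophil markers summed to 8355, 8054 and 8119 CPM against 8027, 7337 and 7992 CPM, also without overlap. The 3 megakaryocyte markers summed to 85.3, 88.1 and 86.9 CPM against 76.7, 76.4 and 62.7 CPM. The 5 proliferation genes overlapped between the groups, at 2279 to 2578 CPM and 2436 to 2518 CPM. Osteoblast markers summed to 24.1 CPM in unloaded 1, the library with the highest share of ribosomal protein counts, and to 36.3 to 127 CPM in the 5 other libraries. None of the 8 other marker sums was highest or lowest in unloaded 1. The part of cell composition in the values of the family was not tested.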

How the data were processed

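The deposited table holds raw read counts per gene for 6 libraries, as its whole numbers and unequal totals show. Per the submitters' processing notes, CASAVA, HISAT2 2.0.5 and featureCounts 1.5.0-p3 were used with mm10; which annotation release was counted, whether strand was used and how multi-mapped reads were treated is not stated there. Of 54532 genes, 27245 had no count. Genes kept by edgeR's filterByExpr were scaled by TMM and tested with edgeR 4.0.16 (glmQLFit, glmQLFTest) in R 4.3.3, unpaired, 3 libraries against 3, with Benjamini-Hochberg adjustment over 15015 genes. SE was taken from the fold change and its F statistic. For log2 CPM the prior count was 2. DESeq2 1.42.0 and limma-voom (limma 3.58.1) were alternatives. Copies were searched with blastn 2.17.0 among genes with counts and a pseudogene biotype or name, against GENCODE M21 transcripts of the members. GENCODE M21 also gave length, GC content and overlaps, from the principal transcript of each gene. That transcript was chosen by its APPRIS rank, then by the longest coding sequence, then by the longest transcript. These steps were added after the data were seen. The members and lists were chosen with earlier results of these data known. Named members were the 6 most significant in each direction, the 5 highest and 5 lowest levels per kilobase of deposited length, preset roles and paralogs; for other lists, up to 3 genes in each direction. Rpl13, Rps9, Rps18, Rps21, Rps27rt, Rpsa, Rpl34 and the 8 members rich in copies were named after their values were seen. The edgeR test was also run on simulated counts, drawn independently for each gene and without library shifts like those of control 1 and unloaded 1. That run is therefore no check of the test under such shifts.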

Additional observations from a re-analysis of the deposited data

How the results depend on the processing

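The median log2 fold change of the members was positive under every alternative run, from 0.03 (without unloaded 1) to 0.16 (without control 2). Members called numbered 1 of 82 with DESeq2 and 3 of 83 with no filter on low counts (Rpl17, Rpl7a and Rpl21), and 0 in the other fits. Of all genes, DESeq2 called 40 of 15015, the fit with no filter 183 of 27287 and the fit with the replicate block 1 of 15015. Fits without 1 library called from 0 to 5 (5 of 15438 without unloaded 1). Members with all unloaded libraries above or below all controls numbered 8 with upper-quartile scaling, where 6.39% of all genes lay above and 5.69% below. With library size alone they numbered 12, against 6.15% above and 5.51% below. When 1 library was left out they numbered 6 to 45. The 6 were without unloaded 1, against 12.9% of all genes above and 13.3% below. The 45 were without control 2, against 10.4% above and 10.4% below. Rpl21 had a value of 0.01722 with copies added, an alternative chosen after seeing the data, and Rpl3l 0.005106 with the replicate block. Same-numbered libraries had correlated deviations of 0.031, −0.063 and 0.019, and the other combinations lay between −0.088 and 0.094. Correlations this near 0 cannot show whether the libraries were paired, and the labels do not say. With the block the median was 0.10 and no member was called. Leaving out 1 library at a time, the direction changed for 12 named members, whose log2 fold changes ran from −0.105 to 0.003043 (Rpl27), −0.07659 to 0.01933 (Rps7), −0.01414 to 0.2637 (Rps15), −0.04401 to 0.4559 (Rpl36al), −0.2551 to 0.4451 (Rpl3l), −0.09859 to 0.2397 (Rps29), −0.0599 to 0.5166 (Rps28), −0.07702 to 0.3129 (Rps27), −0.03421 to 0.1524 (Rpl35), −0.09983 to 0.1406 (Rpl39), −0.01245 to 0.14 (Rpl10) and −0.1809 to 0.1522 (Rps27l). The cause was not tested. With 3 libraries a group the typical SE was 0.12, and differences well above it were not called either. Rpl7a, at −0.70 ± 0.21, had an edgeR adjusted p of 0.722.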

Other observations

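The other marker lists gave these sums. B lineage markers were at 664, 600 and 692 CPM in the controls and 606, 633 and 457 CPM in the unloaded libraries, with 7 of 7 fold changes negative. T lineage markers were at 24.8, 27.4 and 34.8 CPM against 38.7, 53.02 and 31.2 CPM, and monocyte markers at 1955, 2020 and 1928 CPM against 2104, 1763 and 2179 CPM. Neutrophil precursor markers were at 5798, 7183 and 5877 CPM against 5844, 5623 and 6092 CPM. Osteoblast markers were at 82.1, 36.3 and 127 CPM against 24.1, 72.1 and 68.3 CPM. The groups overlapped for all 5 sums, and no gene of these lists was called.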
